A study of Mus musculus with 9 samples.

Results

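Endothelin and apelin signalling was followed here through 7 genes: the ligands Edn1 and Apln, the converting enzyme Ece1, the receptors Ednra, Ednrb and Aplnr, and Nos3, the endothelial nitric oxide synthase. The genes were taken by name from the count tables, which list 37811 genes, and all 7 had counts. Nuclei came from ventricles of C57BL6/J mice, sex not determined, and their RNA was counted by sNucDrop-Seq, a droplet method that tags each nucleus's polyadenylated RNA with a barcode and each molecule with a unique identifier (UMI). The 9 libraries were 3 controls at postnatal day 6 (control P6), 3 controls of 9 to 10 days (control P10) and 3 knockouts of the same age (KO P10). Controls were ERRalphaHet/ERRgammaWT, so they too lacked 1 copy of the gene for ERRα, and knockouts were ERRalphaKO/ERRgammaKO. ERRα (Esrra) and ERRγ (Esrrg) are transcription factors of the nuclear receptor family, known for driving mitochondrial and fuel-use genes in the heart; no cell type restriction of the knockout and no number of animals per library is given in the labels.

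Endothelin-1 is made as a precursor that ECE1 cleaves into the active peptide, a potent constrictor of vessels. It acts through EDNRA, found mainly on smooth muscle and cardiomyocytes, and EDNRB, found mainly on endothelium, where it couples to nitric oxide release by NOS3. Apelin, released by sprouting and capillary endothelium, acts through the receptor APLNR and opposes constriction.

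Since a nucleus gives few counts of any 1 of these genes, UMIs were summed over the nuclei of a class in each library and scaled to a total of 1000000 UMIs (CPM), mitochondrial genes left out. Levels are compared for 1 gene across classes or groups and never between genes. Named classes, written with "-like", came from clusters that carried marker genes of that cell type. Of 25307 nuclei kept, 1235 were endocardial-like (the lining of the heart chambers), 1859 endothelial-like, 4427 fibroblast-like and 9868 cardiomyocyte-like, and these 4 classes were tested. Members under the filter on low counts had no test: Apln and Aplnr in all but endothelial-like nuclei, Ednra in endocardial-like and Nos3 in fibroblast-like nuclei. The 938 pericyte-like nuclei fell to 48 in 2 libraries, 2 short of the minimum of 50, and were described without a test. The 189 macrophage-like and 110 epicardial-like nuclei held at most 14 UMIs of any member.

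Libraries held 2608067 to 5769630 UMIs, of which mitochondrial genes took 0.888% to 40.8%, the highest share in control P10 library 1. KO P10 library 2 shared 465 barcodes with KO P10 library 1, against 12 for the next pair of libraries, and the 464 of them past the UMI minimum were left out of library 2. Between 11.4% and 46.3% of the nuclei kept in a library lay in 4 clusters without a name. One of these, poor in the nuclear RNA Malat1, was led by hemoglobin and macrophage genes and held 1335 nuclei of KO P10 library 1. Nothing in the labels ties libraries to separate animals, so p-values measure the spread between libraries. As a check of the labels, Esrra in cardiomyocyte-like nuclei stood at 91.4, 143 and 135 CPM in control P6, 91.4, 103 and 71.8 CPM in control P10 and 9.09, 22.1 and 21.1 CPM in KO P10. Esrrg stood at 609, 883 and 554 CPM, then 1778, 1366 and 1579 CPM, and 977, 600.1 and 782 CPM. All KO P10 libraries lay below all control P10 libraries for both genes.

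The bases before the start of both ligand genes and of the converting enzyme are printed because levels of these genes changed, and because ERR receptors and the flow-responsive KLF factors bind known short motifs. The RefSeq table (GRCm38.p6) held windows of 250 bases for 5 of the 7 members; Aplnr and Nos3 had no entry. Capitals mark CACCC, the core bound by KLF factors, or its reverse complement. The windows are chr13:42301226-42301475 on the plus strand for Edn1, chr4:137861987-137862236 on the plus strand for Ece1 and chrX:48034854-48035103 on the minus strand for Apln, each 5′ to 3′.
Edn1: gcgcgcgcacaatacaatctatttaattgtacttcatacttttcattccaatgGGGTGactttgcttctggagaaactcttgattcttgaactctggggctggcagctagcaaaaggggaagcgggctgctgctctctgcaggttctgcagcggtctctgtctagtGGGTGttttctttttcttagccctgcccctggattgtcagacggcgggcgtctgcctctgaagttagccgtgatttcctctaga
Ece1: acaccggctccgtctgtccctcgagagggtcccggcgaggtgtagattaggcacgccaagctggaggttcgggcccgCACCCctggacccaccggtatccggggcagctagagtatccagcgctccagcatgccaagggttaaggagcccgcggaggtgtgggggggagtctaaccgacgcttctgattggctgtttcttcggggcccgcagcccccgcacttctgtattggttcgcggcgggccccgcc
Apln: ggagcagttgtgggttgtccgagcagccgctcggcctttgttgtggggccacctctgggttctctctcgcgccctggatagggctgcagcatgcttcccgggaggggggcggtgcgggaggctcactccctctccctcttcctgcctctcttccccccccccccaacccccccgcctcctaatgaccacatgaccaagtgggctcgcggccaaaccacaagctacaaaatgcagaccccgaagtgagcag
CACCC was present on either strand in 52.0% of 32851 upstream windows in the table, and among members in Edn1, Ednrb and Ece1. The ERR half-site AAGGTCA was present in 4.08% of all windows and in no member window; the longer TCAAGGTCA, which contains it, was present in 0.387% and in no member window. The other motifs searched on both strands were TGANTCA (6.75% of all windows, no member), TGACGTCA (1.55%, no member), GATAA (22.6%, no member), ACGTG (16.6%, Ece1 at another start) and GGAA (93.4%, all 5 members). These are matches of letters, not sites of binding.

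Each member had 1 class in which it was highest among the tested classes (the plot of levels by class of nuclei). Edn1, Ednrb, Ece1 and Nos3 were highest in endocardial-like nuclei, Apln and Aplnr in endothelial-like nuclei, and Ednra in cardiomyocyte-like nuclei. Endocardial-like nuclei supplied 5.88% of all UMIs in named classes but 55.0% of those of Edn1, 52.5% of Ece1, 45.2% of Ednrb and 36.0% of Nos3. Endothelial-like nuclei supplied 11.3% of all UMIs, 74.6% of those of Apln and 75.4% of those of Aplnr. Cardiomyocyte-like nuclei supplied 79.0% of the Ednra UMIs, with 55.5% of all UMIs. The highest class was picked on these same values. It was above each other tested class in 9 of 9 libraries for 20 of 21 pairs of classes, with p = 0.00391 for each pair in an exact two-sided sign-flip permutation test of log2(CPM + 10), the smallest p that 9 libraries can give (adjusted p = 0.00410). The exception was Nos3, endocardial-like over endothelial-like by 0.89 ± 0.76 (SD, log2 scale) in 7 of 9 libraries (exact p = 0.0156, adjusted p = 0.0156). With classes taken from each nucleus's own marker UMIs, 17 of 21 pairs differed. The Ednra pairs were then lost, with 2 to 84 cardiomyocyte nuclei per library left, and Nos3 differed by 0.32 (adjusted p = 0.228, exact permutation test).

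**Figure D1:**
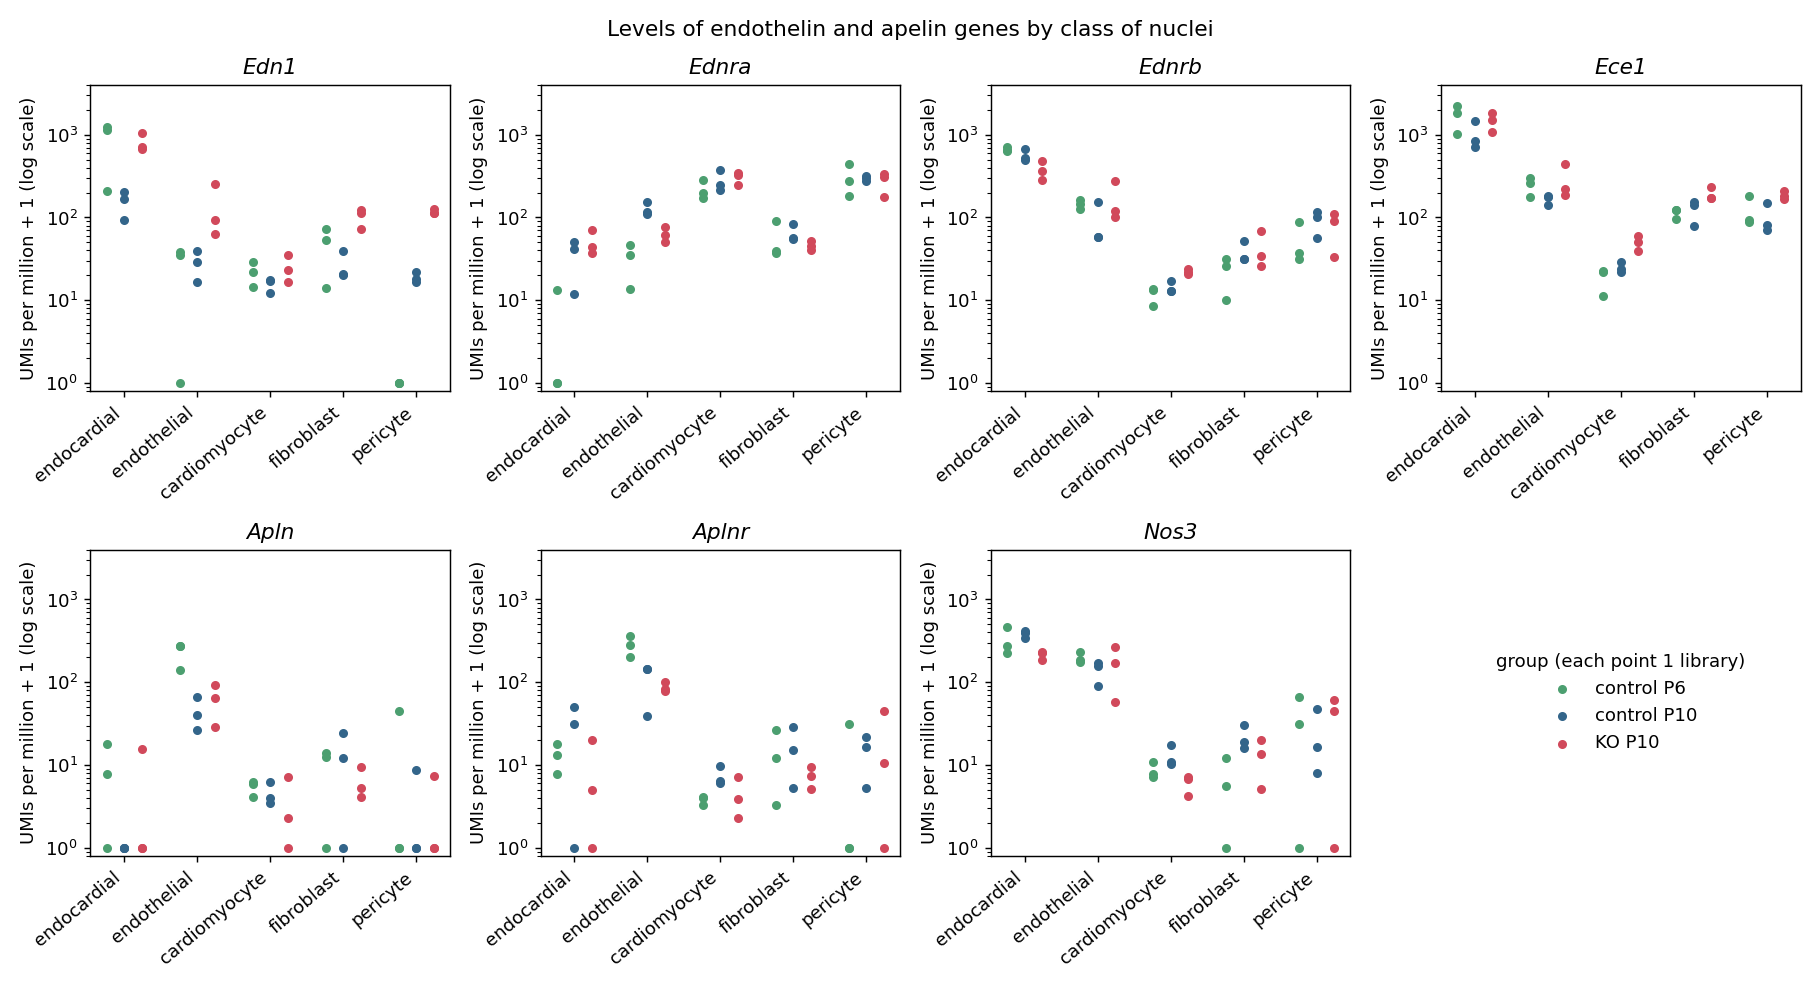
Levels of the 7 genes in CPM + 1 (vertical log axis) in 5 classes of nuclei (horizontal axis), each point 1 library, coloured by group. Edn1, Ece1 and Ednrb stand highest in endocardial-like nuclei, Apln and Aplnr in endothelial-like nuclei, and Ednra in cardiomyocyte-like and pericyte-like nuclei.

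Edn1 (chr13:42301476-42307990, plus strand, GRCm38), which encodes the endothelin-1 precursor, was lower in endocardial-like nuclei at P10 than at P6 in controls and higher in KO P10 than in control P10. Levels were 205, 1155 and 1255 CPM in control P6, 166, 205 and 91.5 CPM in control P10 and 665, 714 and 1049 CPM in KO P10. The control P10 libraries lay below all KO P10 libraries and below control P6 libraries 2 and 3, and control P6 library 1 was level with the highest of them. The KO P10 levels lay within the range of control P6. From control P6 to control P10 Edn1 fell by 2.57 ± 0.45 (log2 ± SE, n = 3 libraries each; p adjusted by Benjamini-Hochberg over all genes in edgeR's quasi-likelihood test = 0.000736). This was 1 call among the 4 members past the filter on low counts, against 8.8% of all genes tested in these nuclei (4.5% higher and 4.3% lower). In KO P10 Edn1 rose by 2.36 ± 0.44 over control P10 (edgeR adjusted p = 0.00263), again 1 call of 4, against 1.98% of all genes (1.08% higher and 0.9% lower). The comparisons share the control P10 libraries, so a low value there enters both.

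The age call held under all 15 alternatives run (highest adjusted p = 0.0302). The knockout call was lost without control P10 library 3 (log2 2.14, edgeR adjusted p = 0.0594) and with classes from each nucleus's own markers (log2 2.02, edgeR adjusted p = 0.0611). Other RNA moved with the groups in the same nuclei. Ribosomal protein genes, 98 in number, summed to 14325 to 19349 CPM in control P6, 5900 to 11628 CPM in control P10 and 11082 to 15092 CPM in KO P10. The 7 endocardial markers summed to 4239 to 5490 CPM, 5369 to 6761 CPM and 4727 to 6573 CPM, and the endocardial marker Npr3 was present in every group. The part of the ribosomal or other shared RNA in the Edn1 values was not tested.

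In KO P10 Edn1 rose in endothelial-like and fibroblast-like nuclei as well. In endothelial-like nuclei it stood at 38.0, 27.6 and 15.4 CPM in control P10 and 91.0, 254 and 62.9 CPM in KO P10, with KO library 2 far above the others and no overlap. The rise was 2.54 ± 0.60 (log2 ± SE; edgeR adjusted p = 0.0161), the single call among 7 members, against 3.85% of all genes (2.38% higher and 1.47% lower). Only the KO P10 libraries reached the level that the filter on low counts asks for. Edn1 thus entered this test through the group where it was high. In a fit of only the 2 groups compared it fell under the filter. The call was lost with DESeq2 (adjusted p = 0.245), without control P10 library 3 (edgeR adjusted p = 0.139) and without KO P10 library 2 (edgeR adjusted p = 0.288), where the log2 change was 1.65. Of 4 venous genes 2 rose in these nuclei in KO P10 and 0 fell, against 2.38% and 1.47% of all genes. For arterial, capillary and tip cell genes 0 were called. Vwf rose by 1.55 ± 0.41 (edgeR adjusted p = 0.0304), to 80.9, 247 and 107 CPM. Vcam1 rose by 1.89 ± 0.50 (edgeR adjusted p = 0.0305), to 91.0, 254 and 37.7 CPM. Vwf was also called higher in fibroblast-like and cardiomyocyte-like nuclei. The part of a changed mix of RNA in the Edn1 values was not tested.

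In fibroblast-like nuclei Edn1 stood at 38.0, 19.4 and 19.7 CPM in control P10 and 72.1, 123 and 111 CPM in KO P10, so that the lowest KO library was above the highest control. The rise was 2.12 ± 0.41 (log2 ± SE; edgeR adjusted p = 0.00626), the single call among 4 members, against 3.64% of all genes (2.14% higher and 1.5% lower). Without control P10 library 3 the adjusted p was 0.0631 (edgeR). Endocardial markers summed to 411 to 570 CPM in control P10 and 504 to 598 CPM in KO P10 in these nuclei, and to 325 to 506 CPM and 434 to 852 CPM in endothelial-like nuclei. Npr3 reached 41.9 to 123 CPM in KO P10 fibroblast-like nuclei, against 11.1 to 19.7 CPM in control P10. Npr3 in endothelial-like nuclei stood at 63.3, 25.5 and 11.03 CPM in control P10 and 80.9, 134 and 69.1 CPM in KO P10, again with every KO library above every control. For each Npr3 UMI, control P10 libraries held 0.188 UMIs of Edn1 in endocardial-like, 1.48 in fibroblast-like and 1.05 in endothelial-like nuclei. In KO P10 these ratios, pooled over libraries like those of control P10, were 0.568, 1.38 and 1.45. By library the fibroblast-like ratios overlapped, at 2.25, 1.75 and 1 in control P10 and 1.06, 1 and 2.65 in KO P10. They rest on 4, 8 and 11 Npr3 UMIs in control P10. Ratios also overlapped in endothelial-like nuclei and did not in endocardial-like nuclei. Npr3 itself differed between groups in cardiomyocyte-like nuclei, with 48 UMIs in control P10 and 199 in KO P10. The Edn1 ratio there was 1.35 and 0.407. The part of RNA from endocardial cells in the fibroblast-like and endothelial-like values was not tested.

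In cardiomyocyte-like nuclei Edn1 was low in every group, at 13.4, 27.9 and 20.7 CPM in control P6, 11.3, 16.01 and 16.7 CPM in control P10 and 34.3, 15.6 and 22.1 CPM in KO P10. The groups overlapped, and neither comparison was called (edgeR adjusted p = 0.491 for age and 0.308 for knockout). The effect of the knockout was greater in fibroblast-like than in cardiomyocyte-like nuclei by 1.58 ± 0.45 (log2 ± SE; edgeR interaction, adjusted p = 0.0403, the single member called, against 2.15% of all genes), but with no filter on low counts the adjusted p was 0.0609. The fall with age was greater in endocardial-like than in endothelial-like nuclei, by -2.57 ± 0.60 (log2 ± SE; edgeR interaction, adjusted p = 0.00733, the single member called, against 1.06% of all genes). Endothelial-like Edn1 stood at 0, 37.5 and 33.9 CPM in control P6, overlapping control P10. For the knockout effect, that difference between endocardial-like and endothelial-like nuclei was -0.10 ± 0.39 (log2 ± SE; edgeR adjusted p = 0.973).

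**Figure D2:**
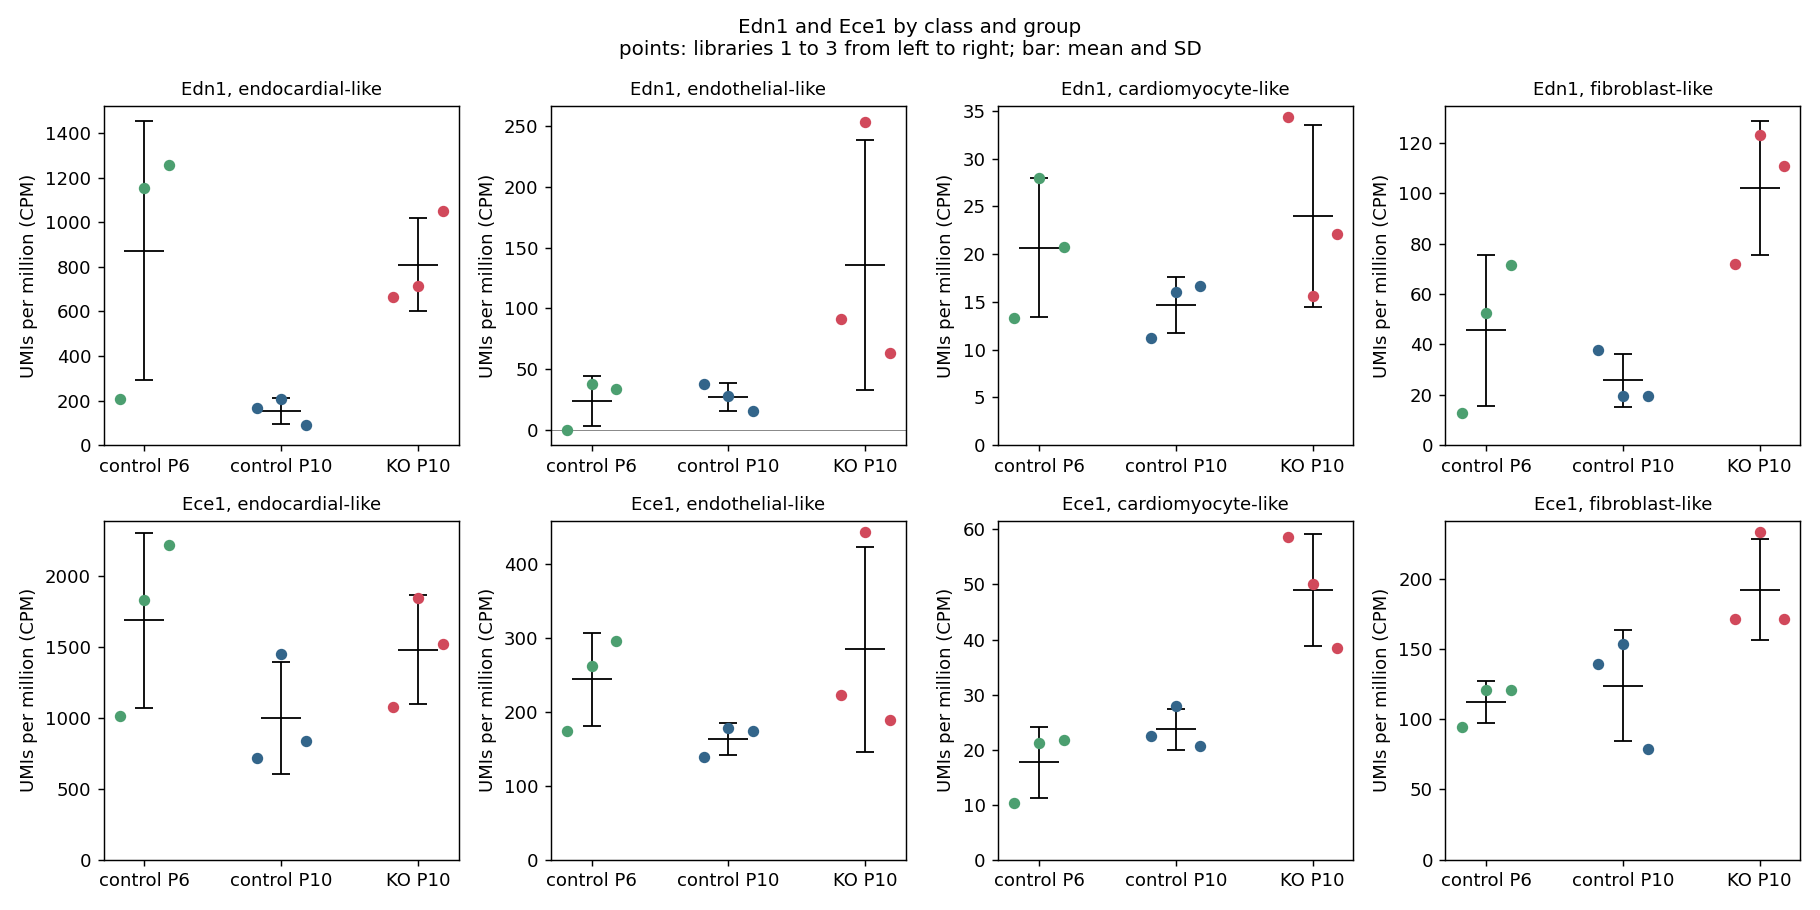
Edn1 (upper row) and Ece1 (lower row) in CPM (vertical axis, a scale for each panel) by group (horizontal axis) in the 4 tested classes; points are libraries 1 to 3, and bars give the mean and SD. Endocardial-like Edn1 lies at 91.5 to 205 CPM in control P10 and at 665 to 1049 CPM in KO P10.

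Pericyte-like nuclei had 0 Edn1 UMIs in all control P6 libraries, 9 in control P10 (17.7 CPM pooled, exact 95% Poisson interval 8.09 to 33.6, counting error only) and 95 in KO P10 (123 CPM, 99.4 to 150.2). The libraries stood at 16.9, 15.5 and 20.9 CPM in control P10 and at 126, 112 and 111 CPM in KO P10. In control P10 library 1 and KO P10 library 1 these nuclei went against their label, with the pericyte receptor gene Pdgfrb at 51.2 and 74.2 CPM, against 155 to 1276 CPM in the other libraries. KO P10 library 1 gave 78 of the 95 UMIs. Without library 1 of both P10 groups, 5 UMIs were left in control P10 (18.3 CPM, 5.96 to 42.8) and 17 in KO P10 (111 CPM, 64.8 to 178). These intervals carry counting error and not the spread between libraries, so the groups were not tested against each other. The part of RNA from endocardial cells in the pericyte-like values was not tested.

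Summed over all barcodes of a library, Edn1 stood at 15.0, 79.7 and 68.6 CPM in control P6, 35.8, 28.03 and 17.7 CPM in control P10 and 87.2, 97.9 and 103 CPM in KO P10. The KO libraries were all above the control P10 libraries, by 1.93 ± 0.41 (log2 ± SE; edgeR adjusted p = 0.00627). Edn1 and Ece1 were the 2 of 7 members called, against 16.3% of all genes (9.47% higher and 6.86% lower). In such sums, fewer cells of a type and less RNA per cell cannot be told apart. The mix of nuclei differed as well. Endocardial-like nuclei were 64, 175 and 99 of 1973, 3681 and 3438 nuclei kept in control P10. In KO P10 they were 152, 271 and 203 of 3452, 2951 and 3154. Endothelial-like nuclei were 77, 335 and 383 in control P10 and 85, 153 and 150 in KO P10. The part of this mix in the sums was not tested. Without control P10 library 3 the adjusted p for Edn1 was 0.0503 (edgeR).

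Apln (chrX:48025146-48034853, minus strand) encodes apelin, a marker of sprouting capillary tips. In endothelial-like nuclei it stood at 140.2, 275 and 275 CPM in control P6 and 25.3, 65.9 and 39.7 CPM in control P10. Every P6 library was above every P10 library. Apln fell by 2.15 ± 0.35 (log2 ± SE; edgeR adjusted p = 5.69e-05), one of 3 members called of 7, against 25.8% of all genes (12.5% higher and 13.3% lower), and the call held under all 15 alternatives. In KO P10 it stood at 91.0, 28.2 and 62.9 CPM, overlapping control P10 (log2 0.23 ± 0.46, edgeR adjusted p = 0.857).

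Apln was near the counting limit elsewhere: endocardial-like nuclei held 4 UMIs in all 9 libraries, and cardiomyocyte-like and fibroblast-like levels did not exceed 6.06 and 23.3 CPM. Over all barcodes it stood at 36.2, 33.2 and 35.8 CPM in control P6 and 11.9, 13.1 and 15.9 CPM in control P10, with no overlap. That change of -1.15 ± 0.30 (log2 ± SE; edgeR adjusted p = 0.0128) was the single call among 7 members, against 23.9% of all genes (10.8% higher and 13.1% lower).

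Aplnr (chr2:85136225-85139923, plus strand), the apelin receptor, fell in the same nuclei. It stood at 280.5, 199.9 and 364 CPM in control P6, 38.0, 142 and 143 CPM in control P10 and 80.9, 77.5 and 101 CPM in KO P10. Control P6 libraries were all above control P10 libraries, of which library 1 was lowest with 3 UMIs, and KO P10 lay inside the control P10 range. The change with age was -1.14 ± 0.31 (log2 ± SE; edgeR adjusted p = 0.00724, called under all 15 alternatives), and the knockout change was -0.51 ± 0.38 (edgeR adjusted p = 0.533). Over all barcodes the KO P10 libraries, at 18.8, 10.9 and 16.7 CPM, lay below the control P10 libraries at 23.5, 31.3 and 33.3 CPM, which did not pass the test (log2 -0.84 ± 0.32, edgeR adjusted p = 0.0849). It was called under 3 of 12 alternatives, among them no filter on low counts (edgeR adjusted p = 0.0186) and a fit of only the 2 groups compared (edgeR adjusted p = 0.0299). The part of the mix of nuclei given above in these sums was not tested.

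Markers of the endothelium moved with age beside both apelin genes. The 11 endothelial markers summed to 14389 to 15218 CPM in control P6 endothelial-like nuclei and 5960 to 8663 CPM in control P10, and cardiomyocyte markers to 8039 to 11301 CPM and 26061 to 40189 CPM. Pecam1, an adhesion protein of all endothelium, stood at 926, 741 and 686 CPM in control P6 and 494, 633 and 599.8 CPM in control P10. Of 6 capillary genes, 5 fell, against the 13.3% of all genes that fell in these nuclei, among them the fatty acid binding protein Fabp4 (log2 -1.98 ± 0.39, edgeR adjusted p = 0.000402) and the lipase anchor Gpihbp1 (log2 -1.88 ± 0.29, edgeR adjusted p = 3.24e-05). The tip cell gene Nid2, a basement membrane protein, fell by 1.60 ± 0.31 (log2 ± SE; edgeR adjusted p = 0.000353), and it was the only one of 7 tip cell genes past the filter. The part of a changed mix of RNA in these nuclei was not tested.

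**Figure D3:**
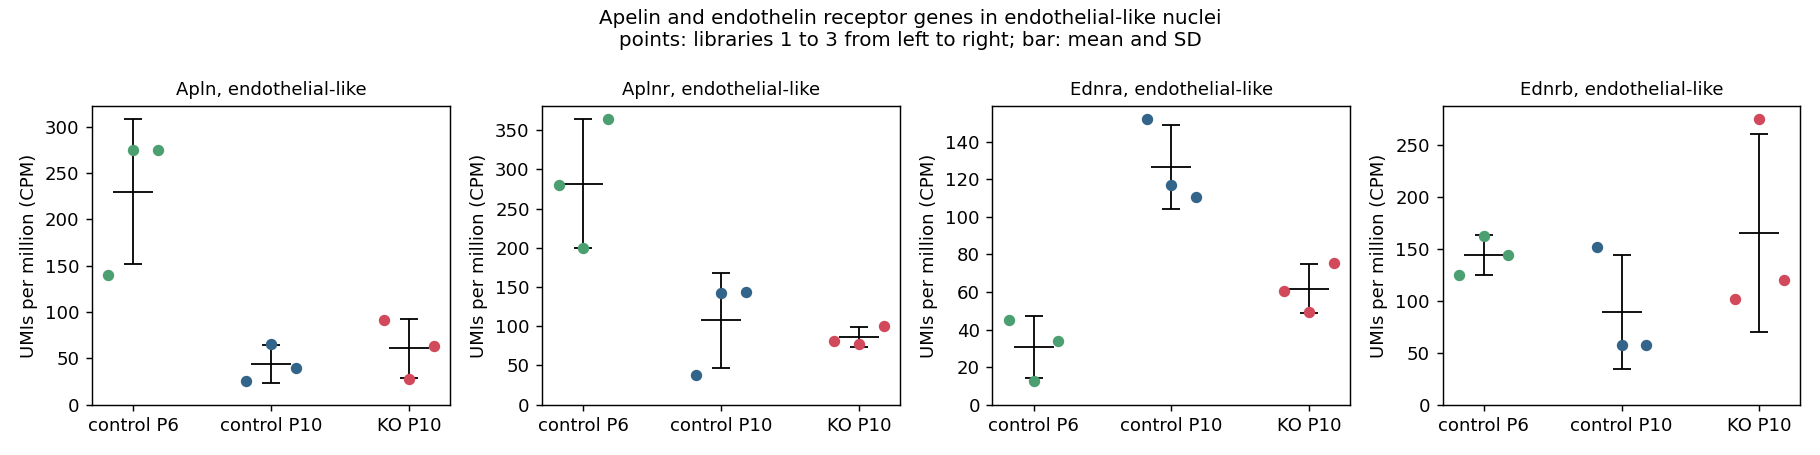
Apln, Aplnr, Ednra and Ednrb in endothelial-like nuclei, in CPM (vertical axis, a scale for each panel) by group (horizontal axis); points are libraries 1 to 3, and bars give the mean and SD. Apln and Aplnr are lower and Ednra higher in every control P10 library than in every control P6 library.

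Ece1 (chr4:137862237-137965229, plus strand), the endothelin converting enzyme, stood at 1009, 1832 and 2215 CPM in control P6, 713, 1446 and 833 CPM in control P10 and 1077, 1842 and 1519.7 CPM in KO P10 endocardial-like nuclei. These groups overlapped, and neither the age change (log2 -0.82 ± 0.34, edgeR adjusted p = 0.129) nor the knockout change (0.57 ± 0.33, adjusted p = 0.545) was called. Without control P6 library 1 the age change was called (log2 -1.07, edgeR adjusted p = 0.039), as it was without control P10 library 2 (log2 -1.17, edgeR adjusted p = 0.0304).

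In cardiomyocyte-like nuclei, where it was far lower, Ece1 stood at 22.5, 27.9 and 20.7 CPM in control P10 and 58.6, 50.1 and 38.4 CPM in KO P10, with no overlap. It rose by 0.94 ± 0.27 (log2 ± SE; edgeR adjusted p = 0.0300), called under 9 of 15 alternatives. Ece1 and Nos3 were the 2 of 5 members called there, against 14.2% of all genes (6.81% higher and 7.43% lower). Nos3 passed the filter on low counts through control libraries only. Leaving out control P10 library 2 or 3 or KO P10 library 1 or 2 ended the Ece1 call, with adjusted p from 0.0537 to 0.155 (edgeR). Endocardial markers in these nuclei summed to 171 to 185 CPM in control P10 and 246 to 278 CPM in KO P10, and their part was not tested. Most control P6 cardiomyocyte nuclei were in cluster 0, most of control P10 in clusters 0 and 2, and 698 of the 1270 nuclei of KO P10 library 2 in cluster 8. Over all barcodes Ece1 rose by 0.87 ± 0.26 in KO P10 (log2 ± SE; edgeR adjusted p = 0.0346), from 124, 141 and 81.6 CPM to 172, 249.5 and 166 CPM, with no overlap. That call was lost without control P10 library 3 (edgeR adjusted p = 0.201) and without KO P10 library 2 (edgeR adjusted p = 0.127). The part of the mix of nuclei in these sums was not tested here either.

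Ednra (chr8:77663031-77724464, minus strand), the receptor that couples endothelin to contraction and growth, had no called change in cardiomyocyte-like nuclei. It stood at 284, 195 and 172 CPM in control P6, 372, 212 and 249 CPM in control P10 and 247, 347 and 325 CPM in KO P10, and the groups overlapped. The changes were 0.52 ± 0.32 with age (log2 ± SE; edgeR adjusted p = 0.270) and 0.02 ± 0.32 with knockout (edgeR adjusted p = 0.980). In the age comparison 0 of 5 members were called in these nuclei by edgeR or DESeq2 and 0 had an unadjusted p under 0.05, against 18.1% of all genes called (8.81% higher and 9.31% lower). Scaling by TMM moved log2 changes in cardiomyocyte-like sums by 0.15 for age and -0.12 for knockout relative to plain CPM. Pericyte-like nuclei, not tested, held Ednra at 439.9, 275 and 181 CPM, then 317, 302 and 272 CPM, and 176, 335 and 310.1 CPM, a range close to that of cardiomyocyte-like nuclei. Over all barcodes the age change of Ednra was 0.55 ± 0.26 (log2 ± SE) and was not called (edgeR adjusted p = 0.140). It was called under 2 of 11 alternatives: no filter on low counts (edgeR adjusted p = 0.0310) and without control P6 library 1 (0.0410).

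In endothelial-like nuclei Ednra rose with age. It stood at 45.0, 12.5 and 33.9 CPM in control P6, 152, 117 and 110.3 CPM in control P10 and 60.7, 49.3 and 75.4 CPM in KO P10. The control P10 libraries were above both other groups without overlap. The rise was 1.92 ± 0.37 (log2 ± SE; edgeR adjusted p = 0.000368, called under all 15 alternatives), and the knockout change was -0.94 ± 0.39 (edgeR adjusted p = 0.197). Cardiomyocyte markers, higher in these nuclei at P10 than at P6 as given above, stood at 27971 to 47107 CPM in KO P10, above the lowest control P10 library. Pericyte markers summed to 1104 to 2286 CPM in control P6, 860 to 1533 CPM in control P10 and 817 to 1193 CPM in KO P10. The part of RNA from cardiomyocytes and pericytes in the Ednra values was not tested. The transcript 4933431K23Rik overlaps Ednra on the other strand with 931 UMIs over all barcodes, and without strand in the counting, which is not given in the sources used here, reads of both cannot be told apart.

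Ednrb (chr14:103814625-103844402, minus strand), the endothelial receptor that clears endothelin and leads to nitric oxide release, stood at 701, 629 and 652 CPM in control P6, 663, 491 and 528 CPM in control P10 and 477, 359 and 286 CPM in KO P10 endocardial-like nuclei. Every KO library was below every control P10 library, but the change of -0.57 ± 0.29 (log2 ± SE) was not called (edgeR adjusted p = 0.472). In endothelial-like nuclei it stood at 124, 162 and 144 CPM, then 152, 57.4 and 57.3 CPM, and 101, 275 and 119 CPM, with control P10 library 1 high among its group and KO P10 library 2 high among its own. Neither the age change (log2 -0.98 ± 0.37, edgeR adjusted p = 0.0529) nor the knockout change (1.26 ± 0.40, edgeR adjusted p = 0.0728) passed the test. The age change was called under 6 of 15 alternatives (adjusted p from 0.0166 to 0.289 over all of them). The knockout change was called under 4 of 16: without control P10 library 1 (edgeR adjusted p = 0.0270), without KO P10 library 1 (0.0184), with the shared barcodes left out of both libraries (0.0453) and, chosen after seeing the data, without library 1 of both P10 groups (log2 1.84, 0.00166). Without KO P10 library 2 it was 0.66 (edgeR adjusted p = 0.528).

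The effect of the knockout on Ednrb differed between these classes, endocardial-like minus endothelial-like, by -1.83 ± 0.37 (log2 ± SE; edgeR interaction, adjusted p = 0.00125). Ednrb was the single member called in that test, against 0.686% of all genes. With no filter on low counts the difference was -1.60 (edgeR adjusted p = 0.0346). The difference was not tested with a library left out, KO P10 library 2 among them. Cardiomyocyte-like levels were 7.55 to 16.3 CPM in controls and 19.5 to 23.04 CPM in KO P10, a change of 0.59 ± 0.33 over control P10 that was not called (edgeR adjusted p = 0.253).

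Nos3 (chr5:24364810-24384474, plus strand), which makes the vasodilator nitric oxide in endothelium, stood at 462, 226 and 271 CPM in control P6, 398, 410.1 and 346 CPM in control P10 and 231, 227 and 184 CPM in KO P10 endocardial-like nuclei. The KO libraries all lay below the control P10 libraries, near the lowest control P6 library. The change of -0.83 ± 0.31 (log2 ± SE) was not called (edgeR adjusted p = 0.237). In endothelial-like nuclei Nos3 stood at 175, 233 and 186 CPM, then 88.6, 155 and 168 CPM, and 263, 169 and 56.6 CPM, the KO libraries spanning the whole range of the controls. Neither comparison was called (edgeR adjusted p = 0.420 for age and 0.967 for knockout).

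In cardiomyocyte-like nuclei Nos3 was lower in KO P10, with a change of -1.39 ± 0.43 (log2 ± SE; edgeR adjusted p = 0.0384), from 10.0, 16.6 and 9.19 CPM to 6.06, 3.25 and 5.76 CPM. These levels rest on 8, 28 and 16 UMIs and on 6, 5 and 6 UMIs. Only control libraries reached the level that the filter on low counts asks for. Nos3 thus entered this test through control libraries, where it was higher than in KO P10. The call held under 1 of 15 alternatives, and the other adjusted p-values reached 0.164. With no filter on low counts the adjusted p was 0.0869 (edgeR). Endothelial markers in these nuclei summed to 464 to 904 CPM in control P10 and 561 to 619 CPM in KO P10. Gm15587 and Atg9b overlap Nos3 on the other strand, with 61 and 34 UMIs over all barcodes.

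**Figure D4:**
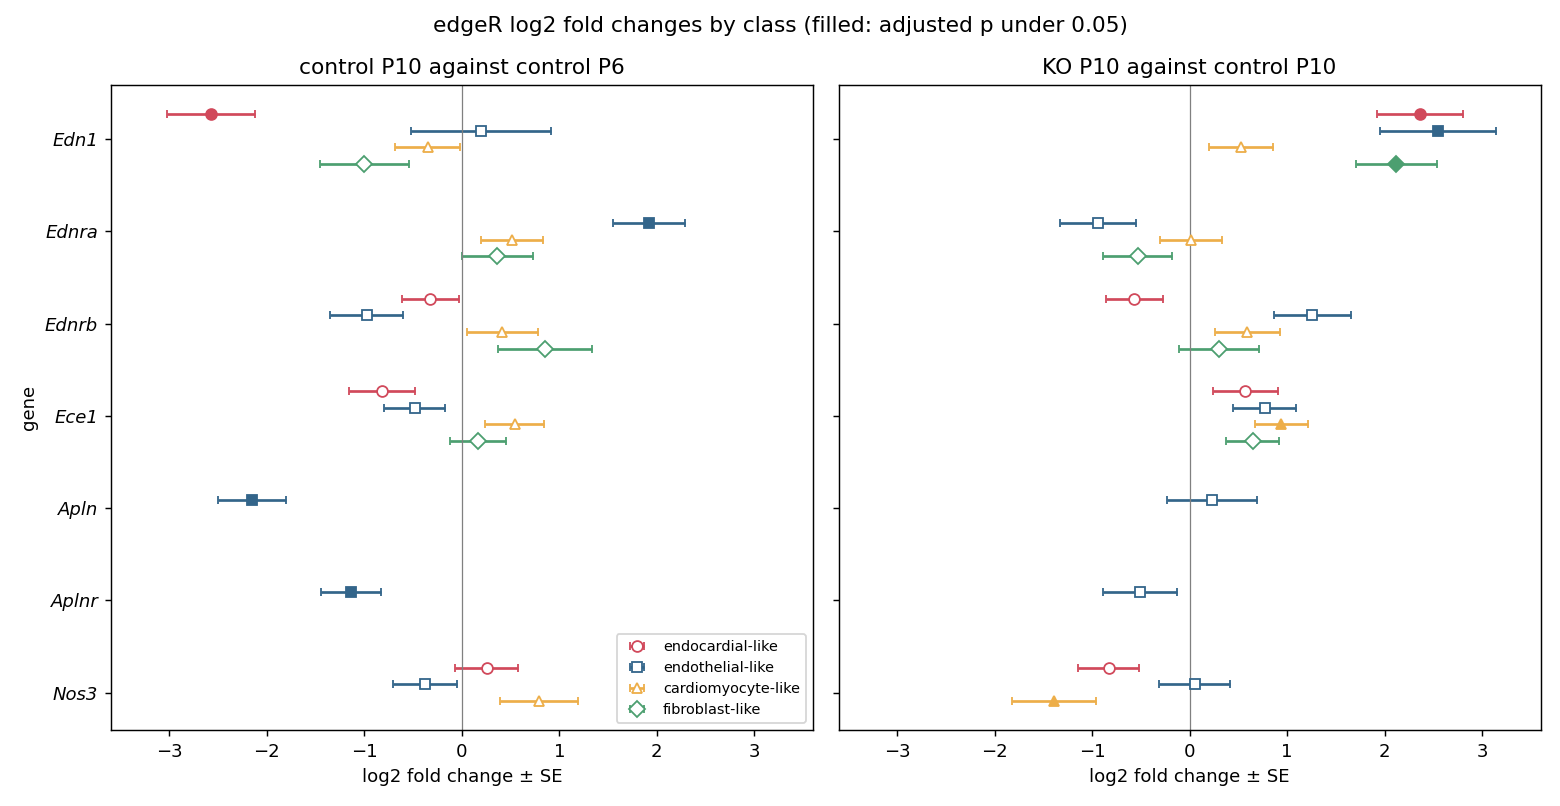
Log2 fold changes with SE (horizontal axis) of each member (vertical axis) in the 4 tested classes, for control P10 against control P6 (left) and KO P10 against control P10 (right); filled symbols passed edgeR's test, and members under the filter on low counts are left out. Edn1 in KO P10 lies between 2.12 and 2.54 in endocardial-like, endothelial-like and fibroblast-like nuclei and at 0.53 in cardiomyocyte-like sums.

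In fibroblast-like nuclei the age comparison called 0 of 4 members by edgeR or DESeq2, with 1 at an unadjusted p under 0.05, against 13.5% of all genes (6.78% higher and 6.75% lower). That was Edn1, at 12.9, 52.4 and 71.6 CPM in control P6 (log2 -1.001 ± 0.46, edgeR adjusted p = 0.148), which passed without control P6 library 1 (log2 -1.30, edgeR adjusted p = 0.0297). Ece1 stood at 139, 154 and 78.9 CPM in control P10 and 172, 234 and 172 CPM in KO P10, all KO libraries above all controls, with a change of 0.65 ± 0.27 (edgeR adjusted p = 0.233). The medians over the members past the filter were -0.57 for age and 0.00 for knockout in endocardial-like nuclei and -0.48 and 0.23 in endothelial-like nuclei, with medians over all genes between -0.03 and 0.03.

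Of 21 genes of G protein and arrestin coupling in the tables, 18 were past the filter in cardiomyocyte-like nuclei, where 7 rose with age and 0 fell, against 8.81% and 9.31% of all genes. Elsewhere 7 of 17 rose among fibroblast-like nuclei (6.78% of all genes), 4 of 10 among endocardial-like nuclei (4.5%) and 6 of 14 among endothelial-like nuclei (12.5%), where 1, the G protein subunit Gnai2, fell. Plcb1, the phospholipase downstream of Gq-coupled endothelin receptors, rose in cardiomyocyte-like nuclei by 1.64 ± 0.27 (log2 ± SE; edgeR adjusted p = 0.00100). It stood at 36.0, 40.01 and 35.5 CPM in control P6, 91.4, 99.6 and 124 CPM in control P10 and 85.8, 35.8 and 47.0 CPM in KO P10. In KO P10 it fell by 1.07 ± 0.26 (edgeR adjusted p = 0.0107), and 4 of the 18 genes fell and 0 rose in these nuclei, against 7.43% and 6.81% of all genes. Itpr1, a receptor that releases calcium on the phospholipase's product, fell by 1.12 ± 0.26 (edgeR adjusted p = 0.00903), from 369, 276 and 362 CPM to 205, 136 and 176 CPM.

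Of 20 genes of nitric oxide and cGMP signalling, 12 were past the filter in endothelial-like nuclei, where 3 rose and 4 fell with age, against 12.5% and 13.3% of all genes. Prkg1, the cGMP-dependent kinase, rose by 1.77 ± 0.30 (log2 ± SE; edgeR adjusted p = 7.96e-05), from 359.9, 225 and 212 CPM to 924, 814 and 955 CPM. Prkg1 was also called higher with age in endocardial-like (log2 1.43 ± 0.33), cardiomyocyte-like (1.29 ± 0.30) and fibroblast-like nuclei. In endothelial-like nuclei the part of RNA from other classes was not tested. Ddah2, which breaks down inhibitors of nitric oxide synthase, fell there by 1.58 ± 0.30 (edgeR adjusted p = 0.000350). In KO P10 endocardial-like nuclei 2 of 8 fell and 0 rose, against 0.9% and 1.08% of all genes: Ddah2 (log2 -1.71 ± 0.39, edgeR adjusted p = 0.0141) and Cav1, the caveolin that holds NOS3 inactive (log2 -1.48 ± 0.36, edgeR adjusted p = 0.0239). Cav1 stood at 265, 464 and 427 CPM in control P10 and 202, 67.8 and 172 CPM in KO P10, without overlap. Cav1 also fell in KO P10 cardiomyocyte-like nuclei (log2 -1.15 ± 0.33, edgeR adjusted p = 0.0269). There 3 of 17 genes of this list fell and 1 rose, against 7.43% and 6.81% of all genes. In KO P10 endothelial-like nuclei 0 of 12 were called, against 3.85% of all genes.

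Among 8 regulators of endothelial genes, the flow-responsive factor Klf2 fell with age in endothelial-like nuclei, with a change of -1.13 ± 0.27 (log2 ± SE; edgeR adjusted p = 0.00269), from 304, 304 and 343 CPM to 127, 159 and 130.1 CPM. The hypoxia factor Hif1a rose there by 0.90 ± 0.29 (edgeR adjusted p = 0.0216) and in KO P10 cardiomyocyte-like nuclei by 1.07 ± 0.25 (edgeR adjusted p = 0.00886), from 331, 388 and 329.6 CPM to 903, 705 and 796 CPM. With age Hif1a was also called higher in fibroblast-like nuclei. All 8 were past the filter in endothelial-like nuclei, where 1 rose and 1 fell with age, against 12.5% and 13.3% of all genes. In cardiomyocyte-like nuclei 6 were past it. Hif1a was the 1 that rose in KO P10 and Erg the 1 that fell (log2 -1.39 ± 0.34, edgeR adjusted p = 0.0121), against 6.81% and 7.43% of all genes. Of 12 genes of other vasoactive systems, 5 were past the filter in cardiomyocyte-like nuclei. In KO P10 the angiotensin receptor Agtr1a was the 1 that fell, and 0 rose, against 7.43% and 6.81% of all genes. Its log2 change was -1.67 ± 0.28 (edgeR adjusted p = 0.00111), from 57.6, 94.3 and 114 CPM to 23.2, 33.8 and 31.7 CPM. Agtr1a was also called lower in KO P10 over all barcodes and in fibroblast-like nuclei. In the latter it was the 1 of 5 that fell and 0 rose, against 1.5% and 2.14% of all genes. In endothelial-like nuclei 3 of the 12 were past the filter. With age Calcrl rose (log2 0.96 ± 0.34, edgeR adjusted p = 0.0404) and Ramp2 fell (log2 -1.68 ± 0.32, edgeR adjusted p = 0.000276), against 12.5% and 13.3% of all genes. Calcrl was also called higher with age in cardiomyocyte-like (log2 1.44) and fibroblast-like nuclei, and Ramp2 lower in endocardial-like nuclei (log2 -1.35). Of 10 other peptide and processing genes, 3 were past the filter in endothelial-like nuclei. There the convertase Pcsk6 was the 1 that rose with age, by 2.17 ± 0.36 (edgeR adjusted p = 6.63e-05), and 0 fell, against 12.5% and 13.3% of all genes. Pcsk6 also rose with age in cardiomyocyte-like (log2 1.59 ± 0.34) and fibroblast-like nuclei (0.83 ± 0.26), both called by edgeR. In control P10 it stood at 705, 884 and 776 CPM in fibroblast-like and 88.6, 106 and 135 CPM in endothelial-like nuclei. The part of RNA from fibroblasts in the endothelial-like values was not tested.

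Across the 36 class and library sums of the tested classes, the genes whose log2(CPM + 10) ran most like that of each member were taken among 10046 genes. For Edn1 they were Tuft1 (Pearson r = 0.935), Sost, Nrg1, Tm4sf1 and Apoe (0.891), and for Ece1 Tm4sf1 (0.973), Rdx, Atp1b3, F2r and Eng (0.942). For Ednrb they were Aplp2 (0.953), Emcn, Rgs3, Efnb2 and Dennd5b (0.940), and for Nos3 She (0.966), Tie1, Mmrn2, Pecam1 and Cd93 (0.955). Apln ran with Cldn5 (0.929), Rgcc, Btnl9, Slc28a2 and Mgll (0.875), and Aplnr with Btnl9 (0.939), Ly6c1, Rgcc, Mgll and Ly6a (0.912). For Ednra they were Sox6 (0.923), Garem1, Cacnb2, Ppp1r12b and Acss1 (0.906). The 36 sums share libraries and classes, so these values mostly reflect the class in which a gene is high and carry no test.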

How the data were processed

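The deposited tables hold UMI counts per gene and barcode, 3000 barcodes for each P6 and 4000 for each P10 library. STAR 2.5.2a and the mm10 build are named, without further settings, in the submitters' processing notes. The annotation, the use of strand and the rule for keeping barcodes are not given in the sources used here. Ventricles were fresh or frozen, per the labels, with no record of which. No column was left unused (0), and the values were whole numbers.

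The members, lists, tests and naming rules were chosen with earlier results of these data known. Barcodes under 500 UMIs, mitochondrial genes and the top 5% of Scrublet scores per library (candidate doublets, 1332 nuclei) were left out. Clustering (scanpy 1.11.5, 2000 variable genes centred per library, 30 components, 15 neighbours, Leiden resolution 1.0, seed 1) left out the members and the 5 pathway lists, and gave 13 clusters. A cluster was named from 13 marker lists if at least 3 markers were raised 1.5-fold and no rival list came close. A rival came close if at least 3 of its markers were raised and its mean log2 passed 2 limits. These were 0.5 and 0.5 times the mean log2 of the best list. That condition on rivals was set after a knockout-rich cardiomyocyte cluster had stayed unnamed. Clusters with Malat1 under 40% of the median over clusters stayed unnamed, also a choice after the data were seen, as were the removal of shared barcodes, the Npr3 ratios and the promoter motifs. Annotated positions are from GENCODE on GRCm38.

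Counts were summed per class and library, and tested in 1 edgeR 4.0.16 fit of all 9 libraries (R 4.3.3; quasi-likelihood F test, two-sided, TMM, filterByExpr, Benjamini-Hochberg over all genes, threshold 0.05), with DESeq2 1.42.0 among the alternatives. Differences between classes were class by group interactions with the library as a block. Class levels were compared with a pseudocount of 10 CPM. Named are the members, up to 4 called genes per pathway list, class and comparison by adjusted p, and the 5 most similar genes for each member with at least 200 UMIs in named classes. In KO P10 the endothelial-like sums rest on 85 to 153 nuclei and the endocardial-like sums on 152 to 271, and counting error on few UMIs limits low genes. Same-numbered libraries deviated together by more than 0.1 in 4 to 7 of 9 pairs per class, short of all pairs in every class, and the main fit did not pair them. Between control P10 and KO P10 the correlations, over the 4 classes and all barcodes, were 0.172 to 0.440 for libraries 1. They were -0.246 to 0.0785 for libraries 2 and 0.126 to 0.395 for libraries 3. Libraries of different number were not compared, so a batch shared by number was not tested.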

Additional observations from a re-analysis of the deposited data

Results flagged for a closer look

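The same comparison gave a different change in 2 classes of nuclei in 3 cases, for Edn1 and Ednrb. These tests between classes were not repeated with a library left out. Edn1 fell with age by more in endocardial-like than in endothelial-like nuclei, a difference of -2.57 on the log2 scale (edgeR interaction, adjusted p = 0.00733); endothelial-like Edn1 rests on 17 UMIs in control P6 and 23 in control P10. The knockout change of Ednrb was lower in endocardial-like than in endothelial-like nuclei by -1.83 (edgeR interaction, adjusted p = 0.00125), while neither change alone passed the test. Without KO P10 library 2 the endothelial-like change of Ednrb was 0.66 (edgeR adjusted p = 0.528), against 1.26 with it. The knockout change of Edn1 was higher in fibroblast-like than in cardiomyocyte-like nuclei by 1.58 (edgeR interaction, adjusted p = 0.0403).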

How the results depend on the processing

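Edn1 in endocardial-like nuclei and Apln, Aplnr and Ednra in endothelial-like nuclei kept their age calls under all 15 alternatives each. Members called by knockout were less stable. In cardiomyocyte-like nuclei (2 called) the count was 1 with DESeq2, in only the 2 groups compared, with candidate doublets kept, at a minimum of 800 UMIs and with shared barcodes left out of both libraries, and 0 with no low-count filter, with classes from own markers and, added after seeing the data, without library 1 of both P10 groups. Leaving out 1 library gave 0 to 1. With the replicate block the count was 1, Edn1 in endothelial-like nuclei with age turned to -0.054, and 2 changes became called, Ednrb in endothelial-like nuclei with age (edgeR adjusted p = 0.0439) and Aplnr over all barcodes in KO P10 (0.0485). Correlations of the deviations of same-numbered libraries ran from -0.45 to 0.44, and not all pairs were above 0.1 in any class, so a shared origin was not taken as given. In endocardial-like nuclei (1 called) the count was 0 with own-marker classes and 0 to 1 without 1 library, and for age 1 to 2. In endothelial-like nuclei (1 called) it was 0 with DESeq2 and with only the 2 groups compared, 2 without library 1 of both P10 groups and with shared barcodes left out of both, and 0 to 2 without 1 library. In fibroblast-like nuclei leaving out 1 library gave 0 to 1 in both comparisons. Over all barcodes the age count was 3 with no low-count filter and 1 to 3 without 1 library, and the knockout count 0 to 2. The class difference for Edn1 between fibroblast-like and cardiomyocyte-like nuclei gave 0 calls with no low-count filter, and that between endocardial-like and endothelial-like nuclei for the knockout turned to 0.10.

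None of the changes that turned direction had been called. With own-marker classes, endothelial-like Edn1 and Nos3 changed with age by -0.97 and 0.022; with no low-count filter, endothelial-like Nos3 in KO P10 by -0.037; at 800 UMIs, cardiomyocyte-like Ednra in KO P10 by -0.054. Without library 1 of both P10 groups, Apln and Nos3 in endothelial-like nuclei changed by -0.11 and -0.46 and Ednra over all barcodes by 0.25. Leaving out 1 library spread the log2 changes with age from -0.63 to 0.77 for endothelial-like Edn1, -0.013 to 0.43 for fibroblast-like Ece1, and over all barcodes -0.12 to 0.28 for Ece1, -0.63 to 0.11 for Aplnr, -0.067 to 0.29 for Nos3 and -0.14 to 0.39 for Ednrb. For the knockout the spread was -0.21 to 0.42 for cardiomyocyte-like Ednra, -0.33 to 0.53 for endothelial-like Nos3, -0.0046 to 0.63 for endothelial-like Apln, -0.18 to 0.51 for fibroblast-like Ednrb and -0.32 to 0.13 for Ednra over all barcodes. Genes called in all moved too: over the alternatives from 14 to 115 in endocardial-like (77), 50 to 317 in endothelial-like (231) and 78 to 435 in fibroblast-like nuclei (310) for the knockout, and 76 to 489 (342), 864 to 1757 (1546) and 368 to 1758 (1153) for age. In cardiomyocyte-like nuclei they ran from 0 to 2397 (1879) for age and 8 to 1565 (1477) for the knockout, the lowest with own-marker classes, which held 2 to 84 nuclei per library. Over all barcodes they ran from 2023 to 5128 (3793) and 841 to 2970 (2586). The fewest knockout calls outside own-marker classes came without control P10 library 3.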
